A study of Mus musculus with 105 samples.

Results

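The cells described here are single mouse embryonic stem cells (mESCs) collected on day 2 of differentiation. Among days 0 to 4, single cells of that day held the highest summed level of 18 genes of the formative state of pluripotency. Of these genes only 7 had their own highest level then, and the same share over all genes was not counted. A capture site of day 2 was taken as a cell when it held 40000 or more unique molecular identifiers (UMIs, each of which stands for a captured mRNA molecule) outside the ERCC spike-in sequences. This rule uses depth only and no gene, and it left 369 of 400 day 2 sites, of 1667 cells in 2000 sites of the whole series. The 3 members closest to the threshold held 41514, 47624 and 49844 UMIs, and the 3 sites just under it held 39866, 39853 and 39803. Of the members, 341 were on the list of cells retained by the study and 28 were not, and no site below the threshold was on that list.

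All samples used are from TX1072 (clone A3), a female F1 hybrid mESC line with a B6 and a Cast genome. Its genotype also includes rtTA at Rosa26 and, on the B6 X chromosome, Xist under a doxycycline-responsive promoter. The line is a single clone. Day 0 cells were grown in serum with LIF and 2i, a pair of inhibitors of Gsk3 (CT-99021) and MEK (PD0325901). Cells of days 1, 2, 3 and 4 had spent that time in serum medium without LIF and 2i, on fibronectin. Single cells were caught on a microfluidic chip with 10 columns of 40 sites per day, from 1 culture per day, and the 10 chip columns of day 2 held between 34 and 40 members each. Chip columns are technical repeats of that culture, so no test between days was made on single cells and ranges over columns cover technical spread only. Day 1 was sequenced in 2 runs, which cannot be told apart from day 1 itself. Bulk RNA from 3 replicate cultures per day carries the tests, and replicate 1 came from the same cell population as the single cells.

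Naive mESCs in 2i/LIF correspond to the epiblast before implantation and are held there by a network of transcription factors that includes Nanog, Esrrb, Klf4 and Tfcp2l1. After withdrawal these factors are turned off, and cells pass through a formative state in which the de novo DNA methyltransferases Dnmt3a and Dnmt3b and the transcription factors Otx2 and Pou3f1 are switched on, before they become competent for the germ layers. In female cells random X inactivation begins in the same window. The question put to the day 2 data was how far single cells had taken up formative transcripts and whether some of them still held naive ones.

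The shallowest member had 41514 UMIs and the deepest 215927, and the median member had 124701 UMIs from 6365 genes. On days 0, 1, 3 and 4 the median depth was 137374, 123204, 123492 and 164640 UMIs. For values per cell, every cell was therefore thinned at random to 40000 UMIs. No pair of day 2 sites held identical counts, and the 40 row barcodes recur in every chip column by design of the chip.

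The formative state was marked by 4 genes. Levels of single cells are given as UMIs of a gene per 1000000 UMIs summed over the cells (UPM). In mm10, Dnmt3a lies on the plus strand of chromosome 12 from 3806007 to 3914443 and Dnmt3b on the plus strand of chromosome 2 from 153649450 to 153687730. Pim2, a serine/threonine kinase gene, lies on the plus strand of the X chromosome from 7878262 to 7883432. Pou3f1 (Oct6), a POU domain transcription factor, lies on the plus strand of chromosome 4 from 124656807 to 124660655.

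All markers but 1 had their highest single-cell level at day 2. Dnmt3a stood at 39.2, 312, 642, 258 and 80.5 UPM on days 0 to 4. Dnmt3b stood at 179, 666, 1445, 1250 and 536 UPM on the same days, so that day 3 was close to day 2. The level of Pim2 was 15.8, 147, 629, 434 and 283 UPM. Pou3f1 was the exception, with 13.99, 56.5, 107, 120 and 66.8 UPM and its highest value at day 3. Across the 10 chip columns of day 2 the lowest, median and highest levels were 497, 648 and 756 for Dnmt3a and 1333, 1433 and 1637 for Dnmt3b. They were 398, 662 and 741 for Pim2 and 79.4, 102 and 140 for Pou3f1. For every marker the lowest day 2 column lay above the level of day 0 and of day 1, while the columns of Pou3f1 spanned its day 3 level.

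**Figure D1:**
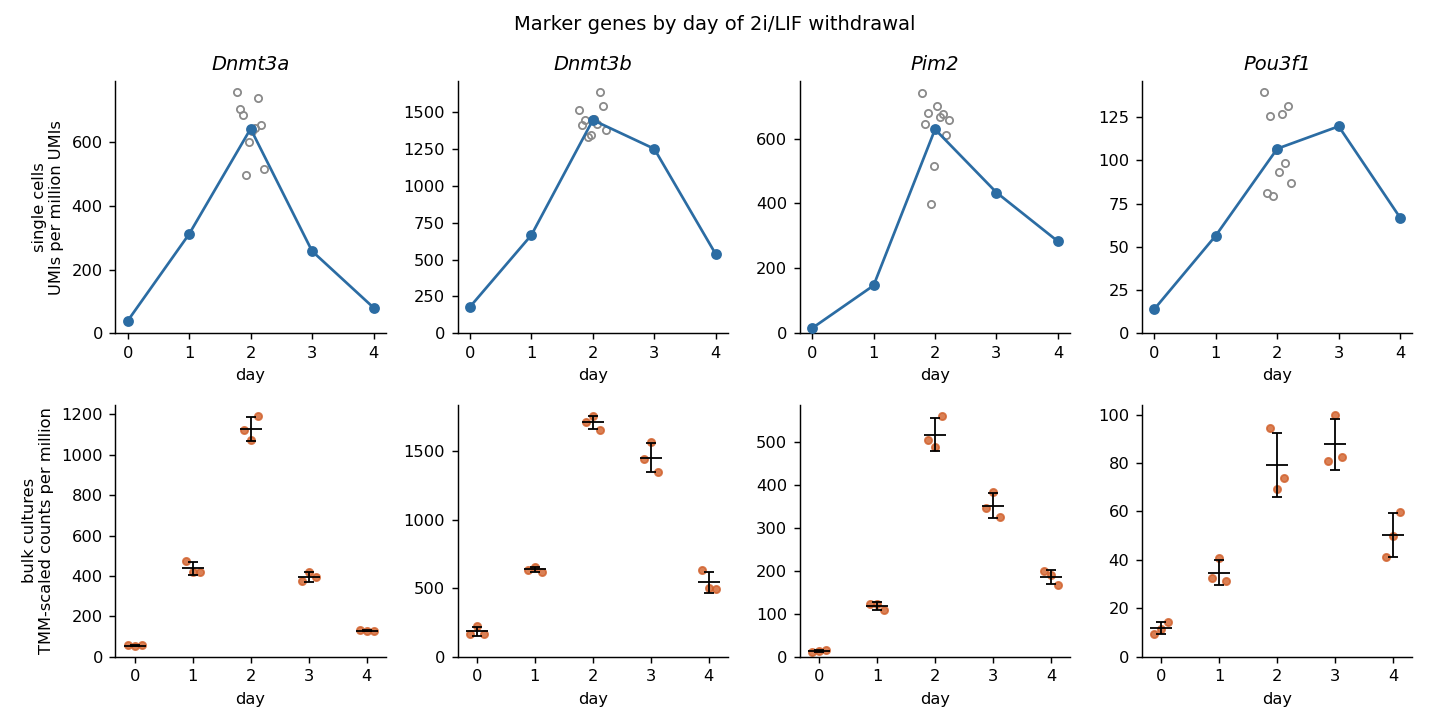
Levels of the 4 marker genes by day. Upper panels give UPM over the single cells of a day (filled points and line) and in each of the 10 chip columns of day 2 (open circles), and lower panels give TMM-scaled counts per 1000000 in 3 bulk cultures a day (points) with their mean and SD (bars). Dnmt3a, Dnmt3b and Pim2 peak at day 2 in both assays, and Pou3f1 has its highest value at day 3 in both.

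Single cells were also examined one by one for the markers. Of the 369 members, 271 (73.4%, exact Clopper-Pearson 95% interval 68.6 to 77.9) held a UMI of all 4 markers among 40000, and each of the others held 1, 2 or 3 of them. The same count at day 0, in cells of the same thinned depth, was 12 of 325 (3.69%), and what part of either count came from free RNA was not tested. A UMI of Dnmt3a was found in 98.6% of day 2 cells and 44.9% of day 0 cells, and a UMI of Pim2 in 93.5% and 24.3%. Intervals cover counting error only. Day 2 cells held a median of 25 UMIs of Dnmt3a, 59 of Dnmt3b, 23 of Pim2 and 3 of Pou3f1, whereas the 95th percentile of day 0 cells was 7, 17, 3 and 3. Pou3f1 therefore separated the days least.

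The bulk cultures allowed the same genes to be tested. Libraries of day 2 held 26163281, 35435958 and 36648673 counts in replicates 1, 2 and 3, and 18871 of 52108 genes passed the filter on low counts. Bulk values are TMM-scaled counts per 1000000 (CPM), and in bulk RNA more cells expressing a gene and more RNA per cell cannot be told apart. Dnmt3a stood at 1122, 1074 and 1192 CPM in the 3 day 2 cultures against 58.7, 51.9 and 56.0 at day 0. The day 2 cultures lay above the cultures of each other day, with log2 fold changes of 4.34 (SE 0.11) against day 0, 1.37 (SE 0.09) against day 1, 1.51 (SE 0.10) against day 3 and 3.13 (SE 0.10) against day 4 (edgeR quasi-likelihood test, adjusted p = 5.34e-15, 4.00e-09, 7.31e-09 and 5.81e-13). Pim2 stood at 503, 487 and 560 in the day 2 cultures and 347, 383 and 325 at day 3. Its groups did not overlap, and the difference of 0.56 (SE 0.12) on the log2 scale passed the test (edgeR, adjusted p = 0.0017).

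The other pair of markers did not separate day 2 from day 3 in bulk. Dnmt3b stood at 1712, 1759 and 1658 at day 2 and at 1445, 1566 and 1350 at day 3, groups that do not overlap but whose difference of 0.23 (SE 0.13) missed the threshold (edgeR, adjusted p = 0.19). Pou3f1 stood at 94.4, 69.4 and 73.7 at day 2 and at 80.9, 99.6 and 82.4 at day 3, with overlapping groups and a difference of -0.15 (SE 0.17, adjusted p = 0.56). Against day 0 the log2 fold changes were 3.21 (SE 0.14) for Dnmt3b, 5.27 (SE 0.14) for Pim2 and 2.75 (SE 0.18) for Pou3f1, all past the threshold. Against day 4 Pou3f1 was higher by 0.65 (SE 0.17), a call that was lost without replicate 1 (0.39, edgeR adjusted p = 0.0923).

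Over the whole formative list, 16 of 18 genes were higher at day 2 than at day 0 in bulk and 0 were lower, where 28.8% of all genes tested were called higher and 27.2% lower. Their median log2 fold change was 2.92, and that of all genes was -0.00024. The 2 genes without a call against day 0, Tcf15 and Foxd3, were also the 2 that did not have a higher single-cell level at day 2 than at day 0. Against day 1, 10 were higher and 4 lower (20.3% and 18.9% of all genes). Against day 3, 8 were higher and 2 lower (12.9% and 13.8%), and against day 4, 14 were higher and 1 lower (23.5% and 26.3%). Without replicate 3 the calls of Otx2, Grhl2, Dnmt3l and Lin28b against day 3 were lost, which left 5 higher and 1 lower, and without replicate 1 those of Otx2 and Foxd3 were. Of the 4 genes lower than at day 1, Grhl2 lost its call with any replicate left out and Foxd3 without replicate 2. Among those higher than at day 1, Lef1 lost its call without replicate 3 and Sox3 without replicate 1 or 3. Against day 4 the call of Sall2 was lost without replicate 3. The 4 comparisons share the day 2 cultures and are not independent. In single cells the list summed to 402, 3027, 4306, 3092 and 1686 UPM on days 0 to 4, and the chip columns of day 2 ranged from 3860 to 4894. Dnmt3b alone gave 33.6% of the day 2 sum. The 4 markers were named when the cells were chosen for description, so the list was also taken without them, which left 1483 UPM at day 2.

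Among regulators of DNA methylation, Dnmt3l, the catalytically inactive partner of the de novo enzymes, had its highest level before Dnmt3a. Its single-cell level on days 0 to 4 was 30.7, 1217, 864, 455 and 133 UPM. In bulk it stood at 920, 1241 and 1298 at day 2, 5.01 (SE 0.26) above day 0 and 0.97 (SE 0.22) above day 3 on the log2 scale, and its difference of -0.34 (SE 0.22) from day 1 missed the threshold (edgeR, adjusted p = 0.24, and 0.027 without the filter on low counts). Its call against day 3 was lost without replicate 3. The maintenance enzyme Dnmt1 did not pass the test against any day (edgeR, adjusted p between 0.0595 and 0.92). With the replicate block it was higher at day 2 than at day 3 by 0.29 and than at day 4 by 0.27 (edgeR, adjusted p = 0.029 and 0.022). Uhrf1, which brings Dnmt1 to replicating DNA, was lower at day 2 than at day 0 by 0.67 (SE 0.11) and higher than at days 3 and 4. Tet2, a dioxygenase that oxidizes methylcytosine, fell by 3.22 (SE 0.16) from day 0, while Tet3 rose by 0.54 (SE 0.19), with groups that overlap.

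Transcription factors of the list followed different courses. Otx2, which redirects enhancers on exit from the naive state, stood at 155, 118 and 132 in the day 2 cultures. It was 2.34 (SE 0.17) above day 0 on the log2 scale and did not pass the test against day 1. Tcf15, a bHLH factor, was at 97.9 UPM in single cells of day 1 and at 15.8 at day 2, and in bulk it was lower at day 2 than at day 1 by 2.19 (SE 0.15). Sall2, a zinc finger factor, was higher than at day 1 by 2.39 (SE 0.13), and its bulk levels of days 2 and 3 overlapped. Lef1, a nuclear effector of Wnt signalling, was 3.74 (SE 0.19) above day 0 and 1.70 (SE 0.17) above day 3. Zic2 passed the test against day 0 in bulk (0.89, SE 0.19), and in single cells it stood at 2.26 UPM.

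Of the secreted factors, Fgf5, the classical marker of post-implantation epiblast, had not reached its highest level by day 2. Its bulk cultures stood at 57.3, 40.2 and 37.3 at day 2 and at 114, 96.7 and 75 at day 3, with a log2 fold change of -1.09 (SE 0.19) for day 2 over day 3. In single cells it stood at 0.177, 33.1, 83.3, 173 and 303 UPM on days 0 to 4. Fgf15 was 5.02 (SE 0.30) above day 0, or 4.40 without replicate 1, and did not differ past the threshold from days 1 and 3. Fgf5 and Lin28b, an inhibitor of let-7 maturation, were the 2 genes called lower at day 2 than at day 3, and the call of Lin28b was lost without replicate 3.

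**Figure D2:**
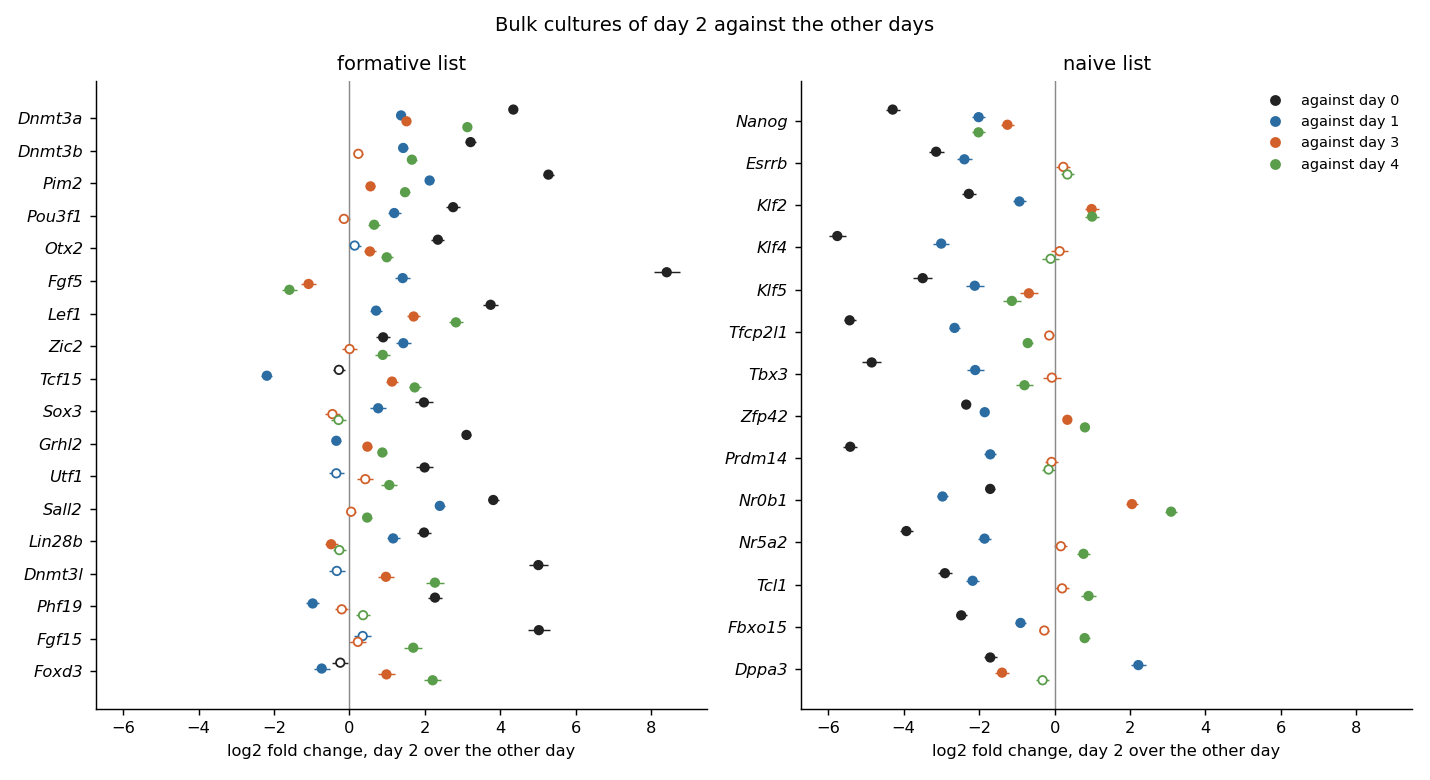
Log2 fold change of day 2 over each other day in bulk cultures for the 18 formative and 14 naive genes (edgeR, 3 cultures a day). Points are estimates, bars are SE, filled points have an adjusted p under 0.05, and colours give the day compared. Against day 0 all naive genes lie left of 0 and 16 formative genes lie right of it with a filled point.

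Naive genes were low at day 2. All 14 naive genes were lower than at day 0 in bulk, with a median log2 fold change of -3.32, where 27.2% of all genes tested were called lower. Nanog stood at 65.6, 45.3 and 54.3 in the day 2 cultures and at 1050, 926 and 1262 at day 0 (log2 fold change -4.29, SE 0.19, edgeR adjusted p = 2.46e-12). The deepest falls were those of Klf4 (-5.76, SE 0.23), Tfcp2l1 (-5.43, SE 0.16) and Prdm14 (-5.42, SE 0.18), and the smallest were those of Dppa3 and Nr0b1 (-1.71 each). Against day 1, 13 were lower and 1, Dppa3, a gene of the germ line and early embryo, was higher by 2.22 (SE 0.19), against 18.9% of all genes lower and 20.3% higher. In single cells Dppa3 stood at 132, 5.41, 51.4, 104 and 25.9 UPM on days 0 to 4, with its lowest level at day 1.

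Day 2 was also the lowest point of Nanog. Its bulk level was below that of day 3 by 1.25 (SE 0.17) and below that of day 4 by 2.02 (SE 0.17), and its single-cell level was 358, 60.0, 23.9, 60.1 and 87.5 UPM. Nr0b1, an X-linked repressor, went the other way and was higher at day 2 than at day 3 by 2.05 (SE 0.15). Klf2 and Zfp42 (Rex1) were likewise higher than at day 3, by 0.98 (SE 0.18) and 0.34 (SE 0.09), the latter a call lost without the filter on low counts or without replicate 1 or 3. Klf5 and Dppa3 were lower, the former not without replicate 2 or 3, and the other 8 naive genes missed the threshold in that comparison. The naive list summed to 4756, 1718, 505, 566 and 390 UPM in single cells, and the day 2 chip columns ranged from 330 to 758. Klf2 gave 22.2% of the day 2 sum.

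The core pluripotency list summed to 3990 UPM at day 2 against 5811 at day 0, of which Dppa5a gave 54.8%. In bulk 5 of 10 were higher and 2 lower than at day 0, against 28.8% and 27.2% of all genes. Lin28a, an RNA-binding protein that blocks let-7, rose by 2.82 (SE 0.13), while Sox2 fell by 1.07 (SE 0.21) and Pou5f1 (Oct4) missed the threshold at -0.28 (SE 0.12, edgeR adjusted p = 0.064, and 0.048 with the replicate block).

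Signalling targets moved in both directions. The inhibitor PD0325901 blocks MEK, the kinase upstream of ERK, and among ERK feedback genes 5 of 8 were higher and 3 lower at day 2 than at day 0, against 28.8% and 27.2% of all genes. Dusp6, a phosphatase that acts on ERK, rose by 5.86 (SE 0.22) and Spry4 by 8.63 (SE 0.38), while Spry2 fell by 1.38 (SE 0.14) and Etv5 by 0.50 (SE 0.12). Against day 1, 0 of the 8 were higher and 4 were lower (20.3% and 18.9% of all genes). Inhibition of Gsk3 holds β-catenin active, and 4 of 6 Wnt targets were lower than at day 0 and 0 were higher (27.2% and 28.8% of all genes). Cdx1 fell by 8.18 (SE 0.38; by 8.92 without replicate 1) and Axin2, a negative feedback gene of the pathway, by 2.71 (SE 0.16), and all 6 were lower at day 2 than at day 4, as were 26.3% of all genes. In the Nodal pathway 3 of 8 genes were higher and 3 lower than at day 0 (28.8% and 27.2% of all genes). Nodal itself rose by 1.09 (SE 0.12), its inhibitor Lefty1 rose by 1.89 (SE 0.45, or 1.22 without replicate 1) and Lefty2 fell by 2.52 (SE 0.36). Smad7 had the smallest adjusted p of the list, with log2 fold changes from -2.55 to -1.99 when 1 replicate was left out.

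Most genes of the X-inactivation centre had risen. In bulk, 5 of 6 genes of the centre were higher than at day 0 and 0 were lower, where 28.8% and 27.2% of all genes were. Against day 3, and likewise against day 4, 0 of the 6 were higher and 2 were lower, where 12.9% and 13.8% of all genes were called against day 3 and 23.5% and 26.3% against day 4. Xist, the RNA that silences the X chromosome, stood at 198, 128 and 233 at day 2 and at 153, 170 and 233 at day 3, with overlapping groups and a difference of 0.01 (SE 0.25). Its activator Rlim was higher at day 3 than at day 2, with a log2 fold change of -1.20 (SE 0.18) for day 2 over day 3. Ftx, a non-coding RNA of the centre, rose by 3.67 (SE 0.15) from day 0 and Jpx, which was at 0 counts in all day 0 cultures, stood at 1.48, 1.94 and 1.53 at day 2.

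Markers of later or other cell types were examined in day 2 cells. Primitive streak markers summed to 22.01, 29.5, 16.8, 55.4 and 471 UPM on days 0 to 4, and T (Brachyury) was at 0.179 at day 2 and 134 at day 4. In bulk all 9 streak genes tested were lower at day 2 than at day 4 (26.3% of all genes). The endoderm list summed to 24.9 UPM, of which Dab2 gave 70.6%, and Ttr was at 0. For neural markers the sum was 40.4, led by Nes, with Hes5 at 0. For trophoblast markers it was 40.0, led by Tfap2c, with Elf5 and Hand1 at 0. Fibroblast and mesenchyme markers summed to 21.5 at day 2 and 785 at day 4, led at day 2 by Thy1, with Prrx1 at 0. Germ line markers summed to 94.8 and were led by Dazl. The 2-cell-like list summed to 0.380 UPM, and 9 of its 10 genes were in the table. Its Zscan4 members are near-identical copies between which reads may be split. In bulk, against day 0, the counts higher and lower were 4 and 1 of 9 for endoderm, 2 and 2 of 6 for neural, 2 and 2 of 5 for trophoblast, 5 and 2 of 7 for mesenchyme, 5 and 1 of 6 for germ line and 6 and 0 of 8 for 2-cell-like genes, where 28.8% of all genes were higher and 27.2% lower. The part of such cells in the bulk differences was not tested.

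S phase genes were mostly lower than at day 0. S phase genes summed to 2665 UPM at day 2 and 3232 at day 0, and G2 and M phase genes to 3776 and 3572. In bulk 7 of 10 S phase genes were lower than at day 0 and 1 was higher (27.2% and 28.8% of all genes), and 7 were higher than at day 3 (12.9%). Of 10 G2 and M phase genes 3 were higher and 2 lower than at day 0, and 0 were called against day 3. With the replicate block 4 were higher than at day 0 and 3 higher than at day 3.

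Cells of day 2 covered a wide range of both scores. The formative score, the number of UMIs of the 18 formative genes among 40000, had a lowest value of 12, a median of 179 and a highest value of 370. At day 0 the same 3 values were 0, 15 and 53, and at day 1 they were 52, 120.5 and 237. The naive score, the same sum over the 14 naive genes, ran from 0 over a median of 11 to 153 at day 2, and from 53 over 191 to 303 at day 0. On days 0 to 4 the ratio of variance to mean (Fano factor) of the formative score was 4.87, 9.53, 25.7, 33.8 and 28.5, and that of the naive score was 6.41, 13.2, 30.1, 43.2 and 30.5. Both were thus higher at day 2 than at days 0 and 1, and not highest at day 2. The order depends on the measure, since the means differ between days. The SD over the mean of the formative score was 0.559, 0.280, 0.383, 0.524 and 0.646 on these days, higher at day 0 than at day 2, and that of the naive score was 0.183, 0.439, 1.24, 1.3399 and 1.36.

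Nearly all cells lay above the 95th percentile of the day 0 formative score and below the 5th percentile of the day 0 naive score. Of the members, 365 of 369 (98.9%, 97.2 to 99.7) had a formative score above the 95th percentile of day 0 (31.8 UMIs). A naive score at or above the 5th percentile of day 0 (137.4 UMIs) was reached by 2 of 369 (0.542%, 0.0657 to 1.94). On days 1, 3 and 4 it was reached by 7 of 356, 4 of 302 and 2 of 315 cells, counts too small to order the days. At day 2 the count was 6 of 369 (1.63%) with percentile 1 of day 0 as the limit and 1 of 369 (0.271%) with percentile 10. Among cells retained by the study it was 1 of 341 (0.293%).

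The naive score ran against the formative score, mostly through the 4 markers. Across the 369 members Spearman's rank correlation of the naive with the formative score was -0.399, and without the 4 markers in the score it was 0.0624. Dnmt3l gave 58.2% of the UMIs of the other 14 genes, and without it as well the value was -0.111. With the full score the values of days 0, 1, 3 and 4 were 0.0199, -0.298, -0.522 and -0.152. Within chip columns of day 2 it ranged from -0.577 to 0.00666, the latter in column 9. Cells of 1 culture share its history and the 2 scores share a fixed total, so these values describe the culture and carry no test. The rank correlation of total UMIs was -0.0983 with the formative and -0.0456 with the naive score. The 4 markers went together, with rank correlations from 0.292 (Dnmt3b with Pou3f1) to 0.627 (Dnmt3b with Pim2). Among all 153 pairs of formative genes, however, the median was only 0.0733, and 110 pairs were positive. Of the 91 pairs of naive genes 84 were positive, with a median of 0.145 and a highest value of 0.442 for Esrrb with Nanog. Weak values of this kind are common between sparse counts.

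**Figure D3:**
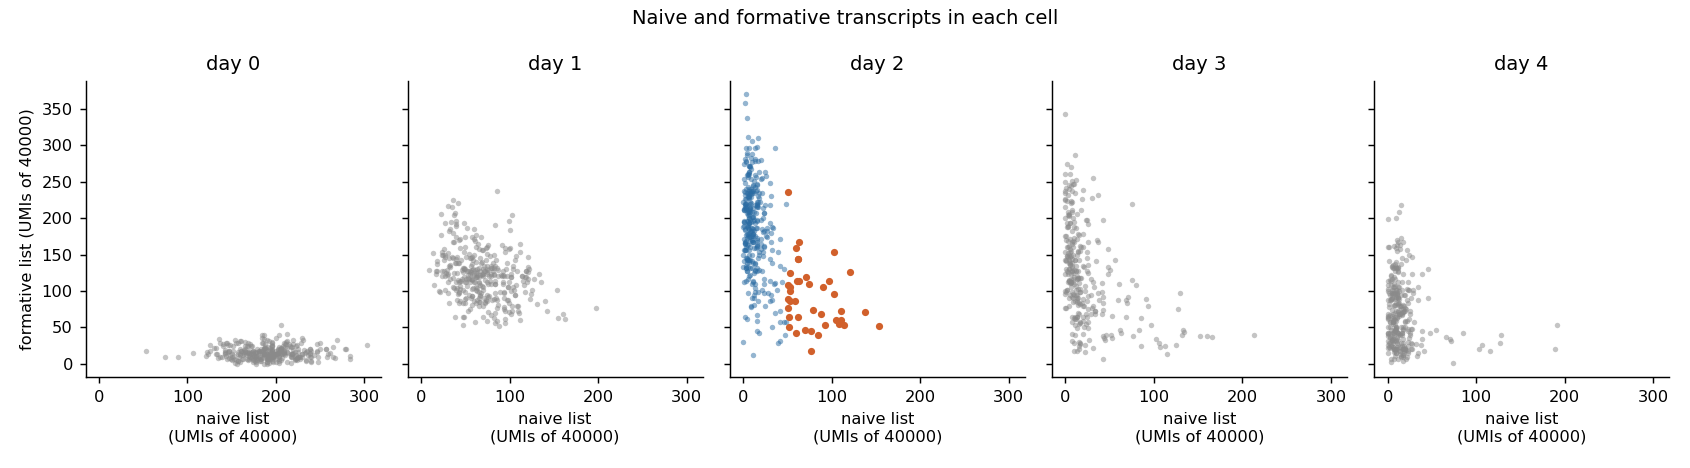
Naive score (x axis) against formative score (y axis) of each cell on days 0 to 4, both in UMIs among 40000. Each point is a cell (grey on other days), and at day 2 the 40 naive-high cells are orange and the other 329 blue. Day 0 cells lie at the lower right (medians 191 and 15) and day 2 cells at the upper left (medians 11 and 179), with naive-high cells between them.

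To describe cells that kept naive transcripts, the 10% of members with the highest naive score were set apart. With ties at the limit of 51 UMIs these were 40 naive-high cells, against 329 others, and 6 cells lay within 1 UMI of the limit. The class is therefore the end of a continuous range. Each chip column held between 2 and 9 of them. Their naive scores ran from 51 to 153 with a median of 70.5, and the other cells had a median of 10.

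Naive-high cells held fewer formative transcripts, and the 4 markers made up most of the difference. Their formative score had a median of 86 (lowest 17, highest 236) and that of other cells 186. The mean was 91.6 against 185, a log2 ratio of -1.01, and it was lower in all 10 chip columns, with ratios from -1.48 to -0.577. Without the 4 markers the medians were 49.5 and 56 and the means 57.7 and 60.2, a log2 ratio of -0.06, and naive-high cells had the higher mean in 5 of 10 columns. This sum is mostly Dnmt3l, and over the 13 genes without it the medians were 17 and 22 and the means 20.9 and 25.6, a log2 ratio of -0.29, with the higher mean in naive-high cells in 4 columns. By the full score, only 1 of 40 naive-high cells lay above the median of all members (179). Even so their mean formative score was well above the day 0 mean of 15.6.

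All 4 markers were lower in these cells. Dnmt3a had a median of 8 UMIs in naive-high and 27 in other cells, a log2 ratio of means of -1.34. For Dnmt3b the medians were 16 and 63 (ratio -1.76), for Pim2 they were 1 and 25 (-3.06), and for Pou3f1 they were 0 and 3 (-2.70). Each of the 4 was lower in all 10 chip columns. At least 1 UMI of Pim2 was found in 57.5% of naive-high and 97.9% of other cells.

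Of the other 14 formative genes, 10 had a lower and 4 a higher mean in naive-high cells. The share of all genes with a lower mean was not counted, so nothing is read from these numbers. Over the list, 7 of 18 genes were lower in at least 9 chip columns and 1 was higher, where 9.69% of all 11729 genes with 0.1 or more UMIs per cell were lower and 1.53% higher by the same count. The 7 were the 4 markers with Fgf5, Sox3 and Tcf15. Dnmt3l had medians of 33 and 32 UMIs and a log2 ratio of 0.09. Otx2 had a ratio of 0.05 (-0.10 to 0.24 with 1 chip column left out). Grhl2, an epithelial transcription factor, had one of -0.10 (-0.47 to 0.02 with 1 column left out). Phf19, a subunit of Polycomb repressive complex 2, was higher in naive-high cells by 3.41 on the log2 scale, in 9 of 10 columns (4.06 without column 4). Sox3, with 5 UMIs in naive-high and 174 in other cells, had a ratio of -2.08 (-2.70 without column 9) and Fgf5 one of -0.96. Sall2 (-0.90), Lef1 (-0.87), Lin28b (-0.81), Foxd3 (-0.71) and Utf1 (-0.39) were below 0 with any chip column left out, although none of them was lower in 9 columns. Leaving out column 6 moved Sall2 to -1.56 and leaving out column 5 moved Foxd3 to -1.36, and the ratio of Foxd3 was 0.01 in the top 5% of cells. Zic2 gave 0 UMIs in naive-high and 31 in other cells, and Fgf15 had a ratio of 0.27 (-0.09 to 0.40 with 1 column left out). The ratio of Tcf15 was -0.64 (-1.48 without column 2), and its direction turned with other settings (0.70 for the top 20% of cells).

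**Figure D4:**
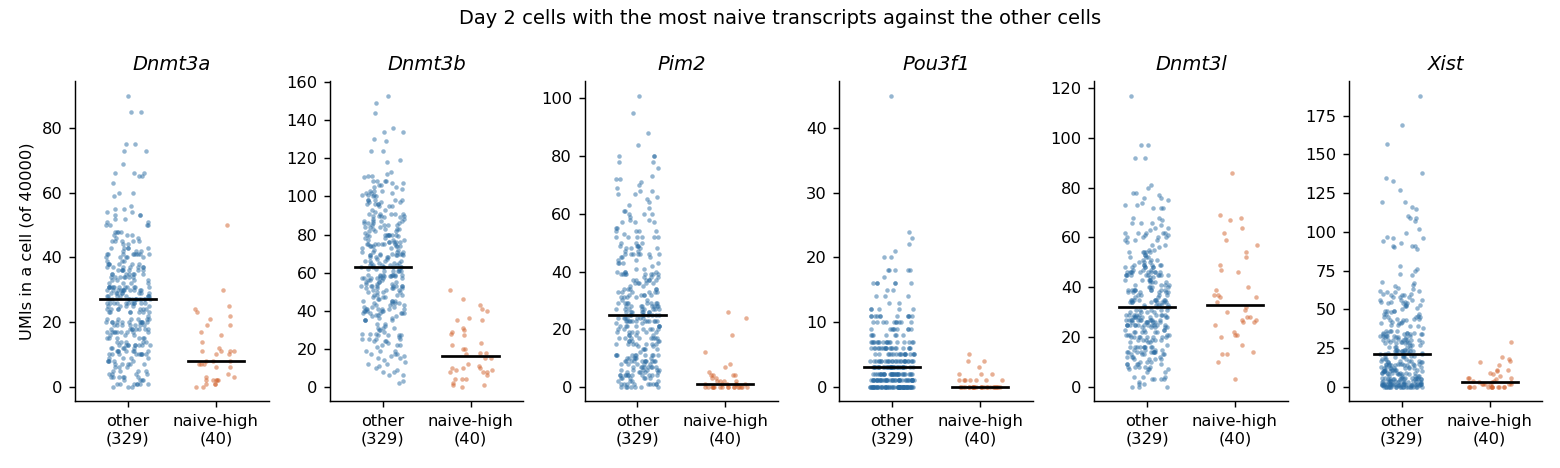
UMIs among 40000 of 6 genes in each day 2 cell, for the 329 other cells and the 40 naive-high cells. Points are cells, spread sideways for view, and black lines are medians. Dnmt3a, Dnmt3b, Pim2, Pou3f1 and Xist have lower medians in naive-high cells, and Dnmt3l has medians of 33 and 32.

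Naive genes were compared with each gene left out of the score that defined the class. Nanog was higher in naive-high cells by 3.67 on the log2 scale, Esrrb by 2.97, Tfcp2l1 by 2.35, Zfp42 by 2.19 and Klf2 by 2.01. Zfp42 was higher in 10 of 10 chip columns. Prdm14, a repressor of formative genes, gave 56 UMIs in naive-high cells and 3 in all others. Tbx3 was the exception, with a ratio of -0.21. Over the list, 5 of 14 genes were higher in at least 9 columns, where 1.53% of all genes were. The list defined the class, so nothing is read from this count. A UMI of Nanog was found in 27 of the 40 naive-high cells, counted by the full score, and in 49 of the others.

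Xist was low in naive-high cells. It had a median of 3 UMIs in them and 21 in other cells, with a log2 ratio of -2.44 and a lower mean in all 10 chip columns. No Xist UMI was seen in 13 of 40 naive-high and 21 of 329 other cells. X-linked genes other than Xist made up a median of 5.22% of UMIs in naive-high and 4.22% in other cells, higher in all 10 columns. Of the 5 members with 80% or more of their X-linked allele-specific UMIs on 1 allele and no allele-specific Xist UMI, which is the pattern of a lost X chromosome, 0 were naive-high.

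Core pluripotency genes were higher in naive-high cells, with a median of 241.5 UMIs against 148, and Dppa5a had a log2 ratio of 0.92. ERK feedback genes were lower, with a median of 4.5 against 9, and Dusp6 (-1.57) and Spred1 (-1.61) were lower in all 10 columns. Naive-high cells had a median of 124066 UMIs and other cells one of 124750, with 0.190% and 0.183% of spike-in UMIs and 3.07% and 2.83% of mitochondrial UMIs. Medians of S phase genes were 105.5 and 103, and those of G2 and M phase genes 112.5 and 144. Markers of endoderm, neural cells, streak and mesenchyme had a median of 0 in both classes. Their means in naive-high and other cells were 0.2 and 1.00 for endoderm (higher in 0 of 10 columns), 2.98 and 1.46 for neural cells (higher in 4), 0.475 and 0.733 for streak and 0.725 and 0.857 for mesenchyme. Trophoblast markers had medians of 1 and 0 and means of 2.75 and 1.53 (higher in 6), and Nodal pathway genes medians of 19 and 15 and means of 34.2 and 20.3 (higher in 4). What part depth, cell cycle or these markers had in the difference was not tested.

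Among all 11729 genes with 0.1 or more UMIs per cell, 179 were higher and 1136 lower in naive-high cells in at least 9 columns. A column holds only 2 to 9 naive-high cells, in which a sparse gene often has 0 UMIs and so counts as lower, and nothing is read from the larger number of lower genes. Among these genes of 1 direction, the 10 with the largest and the 10 with the smallest ratios are named as a description. For this ranking a gene with fewer than 3 UMIs in naive-high cells was taken to have 3. Genes rarer in other cells can thus have smaller ratios and not be named. Genes higher in fewer columns, such as Prdm14 and Nanog (8 columns each), are not among them. The highest of the 179 was Calcoco2, an autophagy receptor gene, with 330 UMIs in the 40 naive-high cells and 146 in the 329 others (log2 ratio 4.22). It was followed by AU015836 (3.92), 2210409E12Rik (3.56), Phf19, Esrrb, Lpar1, a receptor of lysophosphatidic acid (2.77), and Nr0b1. Porcn, an X-linked gene needed for secretion of Wnt proteins (2.69), Rfx2 (2.60, or 1.93 without chip column 6) and Ephx2 (2.49) completed the 10. In bulk, 7 of these 10 were lower and 1 higher at day 2 than at day 0 (27.2% and 28.8% of all genes), and 9 were lower than at day 1 (18.9%). They were chosen in the population of bulk replicate 1, so nothing is read from these counts.

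At the other end, Rab25, a small GTPase of epithelial recycling endosomes, gave 3 UMIs in naive-high cells and 593 in others (ratio of means 0.0416, counting interval 0.00858 to 0.122). Psmb8, a subunit of the immunoproteasome, gave 0 and 273 UMIs (counting interval of the ratio 0 to 0.111). With 3 UMIs over the class taken as the limit of detection, it was at least 11.1-fold lower. Igtp and Gbp2, interferon-inducible GTPases, gave 1 UMI each against 238 and 237 (for Igtp the log2 ratio turned to 0.559 when the class was set by Nanog alone), and Parp9 and Zbp1, which are likewise known as interferon-inducible, gave 3 and 2 against 324 and 248. Rspo1 and Fzd3, a secreted enhancer of Wnt signalling and a Wnt receptor, gave 2 and 1 UMIs against 237 and 216, and Nmb gave 2 against 217. Zfp608 gave 4 against 303. Counts this low let 1 chip column move the log2 ratio. That of Parp9 moved from -3.71 to -2.10 without column 4, that of Nmb from -3.72 to -2.93 without column 4 and -4.56 without column 2, and that of Zfp608 from -3.20 to -4.92 without column 6. That of Rspo1 moved from -3.85 to as low as -4.54 (without column 6) and that of Zbp1 from -3.91 to as low as -4.74 (without column 3, and no ratio was left without column 4). In bulk 9 of the 10 were higher at day 2 than at day 0, against 28.8% of all genes, and Fzd3 missed the threshold (-0.34, edgeR adjusted p = 0.082), while with the replicate block it was lower (adjusted p = 0.034). The UMIs of these 10 genes came almost all from other day 2 cells, in the population of bulk replicate 1, so nothing is read from this count.

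Variation was then measured for every gene. Over 7976 genes with 0.5 or more UMIs per cell the median Fano factor at day 2 was 4.24, and that of the same genes was 4.68 at day 1 and 5.16 at day 3. The 22 spike-in sequences with 0.1 or more UMIs per cell, thinned by the same share as the cell they were in, had Fano factors from 4.13 to 10.8 with a median of 6.42. These values are at other means than those of most genes, and the UMIs of spike-ins also vary with the RNA content of the cell, so they are set beside the genes as a description. Their most abundant sequence had a mean of 26.9 UMIs, below the 59.2 of Dnmt3b. Dnmt3a (11.3), Dnmt3b (16.6) and Pim2 (17.3) lay above the highest spike-in and Pou3f1 (6.48) did not. Their ranks among the 7976 genes were 73 for Dnmt3a, 28 for Dnmt3b, 21 for Pim2 and 432 for Pou3f1. In the same order the factors were 7.71, 7.64, 6.82 and 3.34 on the day before, in cells from 2 sequencing runs, and 12.8, 26.3, 17.6 and 6.78 on the day after.

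The most variable gene was Rhox5, an X-linked homeobox gene, with a Fano factor of 47.6. Dqx1 (36.8) and Xist (36.4) followed. Lefty1 (34.2) and Id3, an inhibitor of bHLH factors (33.8), came next. The 15 highest also held Gata3 (26.9), Slc2a3, a glucose transporter (25.1), Gadd45g, a stress-inducible gene (24.4), the metallothionein Mt1 (23.6), Apoe (21.9) and the imprinted non-coding RNA H19 (21.1). A UMI of Gata3 was found in 14.9% of day 2 and 13.8% of day 0 cells, and one of H19 in 23.3% and 0.308%. Among naive genes, Nr0b1 had a factor of 12.9, Dppa3 one of 11.5 and Klf2 one of 10.98, while that of Nanog was 8.59.

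**Figure D5:**
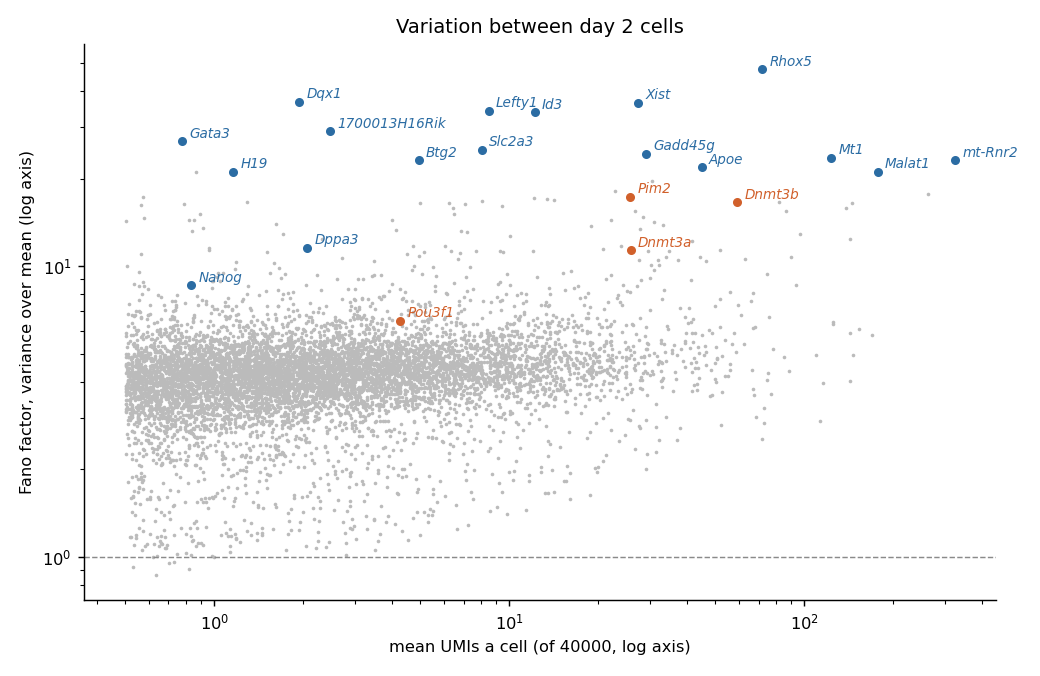
Mean (x axis) and Fano factor (y axis) of 7976 genes across 369 day 2 cells, in UMIs among 40000, both on log axes. Grey points are genes, orange marks the 4 markers, blue the 15 genes of highest Fano factor with Nanog and Dppa3, and the dashed line is 1, the value of counting noise alone. Pim2, Dnmt3b and Dnmt3a lie at 17.3, 16.6 and 11.3 and Pou3f1 at 6.48.

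The first principal component of the 500 most variable genes took up 3.66% of the variance and followed the naive score more closely than the formative score. Its rank correlation was 0.637 with the naive and -0.434 with the formative score, -0.485 with Xist and -0.0205 with depth. The formative score had a stronger rank correlation with a second component (-0.528), described below. Naive and formative genes were among the 500, so these values are not independent of the components. Genes named next are those of the first component. On the naive side the leading genes were Ebp, an enzyme of cholesterol synthesis, the oocyte and early embryo gene Ooep, Klf2, Ifitm1 and the threonine dehydrogenase gene Tdh, followed by Lgals3, Stmn2, Mylpf, Morc1 and AU018091. On the other side they were Pim2, Xist, Pphln1, the gap junction gene Gja1, Gadd45g, the p53 targets Cdkn1a and Trp53inp1, Zfhx3 and the imprinted non-coding RNA Rian. In bulk, of the naive side, 7 of 10 genes were lower and 1 higher at day 2 than at day 0, and of the other side 9 were higher and 1, Cdkn1a, was lower, where 28.8% of all genes were higher and 27.2% lower. Genes of both sides were chosen in the population of bulk replicate 1, so nothing is read from these counts.

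A further group of genes had its highest single-cell level at day 2 by a wide margin. Neb stood at 24.9 UPM, 3.40 times its level on the next highest day, Dnaic1 at 16.8 (3.05 times) and Zbp1 at 16.5 (2.95 times). Tstd1, 1700019A02Rik and Zfp467 followed with 2.60, 2.53 and 2.41 times. Sord, the sorbitol dehydrogenase gene (132 UPM, 2.33 times), Snhg6, a small nucleolar RNA host gene (430, 2.24 times), Coch and Gadd45g (734, 2.20 times) completed the 10. In bulk all 10 were higher at day 2 than at day 0, day 1 and day 4 (28.8%, 20.3% and 23.5% of all genes), and 9 of 10 were higher than at day 3 (12.9%). Zbp1 missed the threshold there (edgeR, adjusted p = 0.095, and 0.045 with the replicate block), with 15.5, 5.54 and 3.6 CPM in the 3 day 2 cultures. Replicate 1 of the bulk cultures is the population in which these genes were chosen. For Gadd45g the day 2 cultures stood at 58.9, 83.7 and 67.4, higher than at day 3 by 2.22 (SE 0.23, edgeR adjusted p = 1.71e-06).

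Both alleles contributed to the markers. Of 20958 allele-specific UMIs of Dnmt3b, 51.6% (50.9 to 52.3) were from B6, and in the bulk cultures of day 2 the share was 52.6% ± 0.16 (SD, n = 3). For Dnmt3a the single-cell share was 44.8% (42.4 to 47.3) and the bulk share 45.4% ± 1.09 (SD, n = 3). Pou3f1 was at 54.9% (50.1 to 59.7) in single cells and 47.6% ± 2.01 in bulk. Pim2 had only 46 allele-specific UMIs, 47.8% of them from B6 (32.9 to 63.1), and a bulk share of 48.7% ± 0.59. Pim2 lies on the X chromosome. Otx2 had the most uneven share of the genes examined in bulk, 26.7% ± 3.55 from B6. Allele shares were not tested, and their intervals cover counting of UMIs only. Over chip columns of day 2 the single-cell share ran from 48.8 to 54.2% for Dnmt3b and from 34.6 to 60.4% for Dnmt3a. That of Pou3f1 ran from 41.2 to 61.0%.

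The unspliced share of Dnmt3a UMIs was 26.1, 7.73, 5.46, 8.70 and 10.4% on days 0 to 4, lowest at day 2, where the chip columns ranged from 3.61 to 7.48%. That of Dnmt3b was 4.69, 4.95, 3.16, 3.09 and 2.76%, and that of Pim2 3.55, 1.50, 1.49, 1.70 and 1.26%. Over all genes it was 10.7, 13.2, 10.97, 12.1 and 11.4%. Pou3f1 was not among the genes of the spliced and unspliced tables.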

How the data were processed

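The authors sequenced 3′ ends of mRNA with UMIs, aligned reads with STAR (2.5.2b, per the submitters' processing notes) to mm10 masked at SNPs, and deposited raw UMI counts per gene and site (34120 genes and 75 ERCC sequences), per allele (SNPsplit) and for spliced and unspliced transcripts. Bulk read counts per gene were deposited by the authors from featureCounts. The single-cell protocol keeps strand, so Xist and Tsix are counted apart.

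Cells, gene lists and comparisons were chosen with earlier results of these data known. Levels are UMIs summed over cells per 1000000 UMIs. Each cell was thinned to 40000 UMIs (seed 1) for scores, Fano factors and the principal component of log2(UMIs + 1). No doublet caller was run. The study removed sites with several cells by microscopy, and its list of retained cells was an alternative. Intervals are exact Clopper-Pearson at 95%.

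Bulk days were tested with edgeR 4.0.16 (R 4.3.3; quasi-likelihood, TMM, filterByExpr, two-sided, Benjamini-Hochberg adjusted p of 0.05 over 18871 genes, 15 libraries of 19827011 to 39628784 counts in 1 fit). The fit and the single-cell measures were tested on simulated data. Replicates were differentiated on different days per the study's reporting summary, so numbers pair the samples. Deviations from group means had a median correlation of 0.126 between libraries of the same number (17 of 30 pairs over 0.1) and -0.0678 between others (1 of 60). The main fit left this pairing out. DESeq2 1.42.0, its size factors, no filter, the replicate block and each replicate left out were alternatives. For single cells they were other seeds, depths, limits of the naive-high class and cells, and each chip column left out. Named genes are the 4 markers, the formative and naive lists, of every other list the 3 highest at day 2 and the smallest adjusted p against day 0, the 10 highest and lowest naive-high ratios with 1 direction in 9 of 10 columns, the 15 highest Fano factors, the 10 genes outside the lists with the largest margin of day 2 over other days, and the 10 leading genes of each side of the component, of which 1 is not reported here. Naive-high ratios were ranked with 3 UMIs as the lowest count of the class. Other genes named from the lists, and the comparison with spike-ins, were chosen after values were seen. Gene positions are from GENCODE vM21. SNP positions and the deletion lines were not used here.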

Additional observations from a re-analysis of the deposited data

Results flagged for a closer look

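Levels of 51 genes and lists were compared over the 10 chip columns of day 2, and 5 had a column whose distance from its nearest neighbour was large for the range of the group. Chance gives about 1 in 20 such cases. In column 4, which held 9 of the 40 naive-high cells, Nanog stood at 69.5 UPM (nearest column 35.9, median 18.3), Esrrb at 97.2 (nearest 58.5, median 37.0) and Tcl1, a coactivator of Akt, at 34.3 (nearest 15.4, median 13.0). In column 8 Lin28b stood at 102 (nearest 74.5, median 55.9). In column 9 the 2-cell-like list stood at 2.29 (nearest 0.688, median 0.216). A chip column is a technical unit of 1 culture, and the source of these differences was not tested.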

How the results depend on the processing

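Calls of the 32 formative and naive genes against day 0 kept their side of the threshold under all bulk alternatives. Against days 1, 3 and 4, 6, 8 and 5 of these genes changed side in at least 1 of them, mostly with a replicate left out. Counts of all genes called were within 1.5 times of those given under DESeq2, its size factors, no filter and the replicate block, which gave 5689 higher and 5389 lower against day 0, 4192 and 3855 against day 1, 2753 and 2917 against day 3, and 4809 and 5258 against day 4. The block changed no count of calls in the formative or naive list, and of the single-gene bulk calls stated above it moved those of Dnmt1, Pou5f1, Fzd3 and Zbp1 past the threshold, as given there. Without 1 replicate, counts of genes higher were 4259 to 5126 against day 0, 2551 to 3252 against day 1, 1271 to 1893 against day 3 and 3251 to 3899 against day 4. Counts of genes lower were 3978 to 4921, 2394 to 3044, 1319 to 1945 and 3818 to 4361, with fewer samples in each fit. The counts that moved by over 1.5 times were 2551 without replicate 3 (day 1, higher), 1496 and 1271 without replicates 1 and 3 (day 3, higher) and 1319 without replicate 3 (day 3, lower). Leaving out 1 chip column gave 4237 to 4357 UPM for the formative and 476 to 526 for the naive list, log2 ratios to day 0 of 3.40 to 3.44 and -3.32 to -3.18, a rank correlation of the naive with the formative score of -0.437 to -0.372, and a formative ratio of naive-high cells of -1.08 to -0.946. Without the 4 markers the formative list fell to 1483 UPM and its log2 ratio to day 0 from 3.42 to 3.26, by construction. In alternatives chosen after seeing the data, the same 14 genes gave a rank correlation with the naive score of 0.0624 in place of -0.399 and a ratio of naive-high cells of -0.0624 in place of -1.01, and without Dnmt3l as well the values were -0.111 and -0.295. The formative ratio of the full list was -1.51 with the 2 cells at the day 0 naive level and -0.491 with naive-high cells set by Nanog alone. Thinning 338 deeper cells to 80000 UMIs raised the Fano factors to 20.4 (Dnmt3a), 30.4 (Dnmt3b), 33.1 (Pim2) and 9.74 (Pou3f1). The naive-high ratio of Tcf15 turned to 0.704 (top 20% of cells), 0.00995 (Nanog alone), 0.00317 (no thinning) and 0.272 (another seed), and that of Igtp to 0.559 (Nanog alone). The cause was not tested.

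Limits are few counts per gene and cell, a single culture for single cells, and 3 cultures per day in bulk. Of the 15 most variable genes, 14 recurred with another seed and 11 each in retained cells and at 80000 UMIs.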

Other observations

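A second principal component, looked at after its genes had been seen, took up 2.84% of the variance between day 2 cells. One side was led by 1700007K13Rik, Trp53inp1, Sdc4, Cald1, Btg2, Mdm2, Klf6, Eda2r, Cdkn1a and Plk2. Trp53inp1, Btg2, Mdm2, Eda2r, Cdkn1a and Plk2 are known targets of the tumour suppressor p53, and Mdm2 had a Fano factor of 17.2. The opposite side was led by Nupr1, Upp1, Pck2, Psat1 and Mthfd2, with Psph also among its 10 genes. Nupr1 is a stress-induced gene, and Psat1, Psph and Mthfd2 encode enzymes of serine synthesis and one-carbon metabolism. Upp1 stood at 575 UPM at day 2 and 164 at day 3, and Nupr1 at 173 and 33.9. Spearman's rank correlation of this component was -0.528 with the formative score and 0.146 with the naive score, and 0.0497 with depth. It was -0.270 with S phase genes, -0.0687 with G2 and M phase genes and -0.203 with Xist. Pim2 and Tdgf1 were on the side of Nupr1.

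Dppa3 had a B6 share of 78.1% (exact 95% interval 75.6 to 80.6) of 1093 allele-specific UMIs in single cells and of 58.5% ± 1.62 (SD, n = 3) in the day 2 bulk cultures. Of the 35 cells with 10 or more such UMIs, 17 had at least 90% from B6 and 1 had at least 90% from Cast. Over chip columns of day 2 the single-cell share ran from 64.3 to 88.8%, wider than the interval, which covers counting only.

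Pou5f1, which had 925 ± 50.6 CPM in bulk at day 2 (SD, n = 3), gave only 42.0 UPM in single cells. Zic2 gave 53.5 ± 8.32 in bulk and 2.26 in single cells. The 2 values are on different scales, and the source of the gap was not tested.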
